A study of Mus musculus with 6 samples.

Results

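A panel of 10 genes of the absorptive cells of the small intestine was followed in the colon epithelium of untreated mice: Rbp2, Fabp1, Fabp2, Apoa1, Apoa4, Apob, Mttp, S100g, Lct and Sis. They were chosen by name as a panel of regional identity, and all 10 of 10 had a row among the 28500 genes measured. Messenger RNA was sequenced from 3 mice labelled Ube2fflox and 3 mice labelled Ube2fΔIEC. All were given as males of 8 weeks, untreated with DSS (dextran sulfate sodium), that drank normally and received no drug. The genotype field calls the Ube2fflox animals WT and the Ube2fΔIEC animals KO, and each library is labelled as a mouse of its own. Ube2f encodes an enzyme that hands the ubiquitin-like protein NEDD8 to cullins. The driver of the deletion and the exons removed are not given in the sources used here, and no group without the floxed allele was sequenced. The cells had been freed from pieces of opened colon with EDTA and strained, so the libraries are of an epithelial fraction and not of sorted absorptive cells. In such bulk libraries fewer cells of a type and less RNA per cell cannot be told apart.

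Absorptive enterocytes of the small intestine take up fat, retinol, calcium and sugars. Fatty acids are bound in the cytosol by the fatty acid-binding proteins FABP1 and FABP2, re-esterified, and loaded by the transfer protein MTTP onto apolipoprotein B to form chylomicrons, which also carry apolipoproteins A-I and A-IV. RBP2 binds retinol in the cytosol, S100G (calbindin-D9k) binds calcium, and the brush border enzymes lactase (Lct) and sucrase-isomaltase (Sis) split disaccharides. The colon takes up water, salts and short-chain fatty acids and forms few chylomicrons. Along the gut these genes depend on transcription factors such as HNF4A, CDX2 and GATA4, and GATA4 is known to mark the proximal small intestine.

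The level of each gene relative to the others was read from FPKM, which is scaled by gene length, and differences between libraries from CPM, for which TMM factors set the library sizes. Library totals ran from 55971362 to 77524693 counts, so that 3 counts, taken as the floor of detection, stand for 0.0376 to 0.0529 CPM. Floors cover counting error only. Ube2f itself was at 34.0, 42.1 and 32.1 CPM in the Ube2fflox libraries and at 17.15, 18.0 and 21 CPM in the Ube2fΔIEC libraries. Its log2 fold change of -0.95 (SE 0.13) did not pass over all genes (adjusted p = 0.0923 by edgeR quasi-likelihood with Benjamini-Hochberg). A gene that does not pass here is thus not shown to be unchanged. Ube2fΔIEC replicate 1 goes against its label of male: Xist, which coats the inactive X chromosome, was at 494 CPM in it and at most at 1.33 CPM elsewhere, and 0 counts of Ddx3y, Eif2s3y, Kdm5d and Uty. Panel results that rest on it are given with and without it. All 12 genes of a colonocyte reference list were measured and tested, with Car1, a carbonic anhydrase of colonocytes, at 5275 ± 1296 FPKM (SD, n = 6). Of the 12, 1 had a positive and 11 a negative log2 fold change, Ube2fΔIEC over Ube2fflox (4 and 8 with library totals in place of TMM). After adjustment over all genes 0 passed in edgeR, against 2 lower in DESeq2 and 0 in limma-voom. Before adjustment edgeR had 0 higher and 3 lower at p under 0.05. The 3 were Car4 (-0.58, SE 0.15), the water channel Aqp8 (-0.75, SE 0.24) and Lypd8 (-0.35, SE 0.12), of which DESeq2 called Car4 and Aqp8. These values have the same sign as that of Rbp2 below, and the part of colonocyte content in the panel's values was not tested.

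The panel spanned the whole range of expression. Fabp2 stood far above the others at 264 ± 45.0 FPKM (SD over all 6 libraries), higher than 99.3% of the 17900 genes tested. S100g followed at 31.2 ± 59.4 FPKM, an average carried by a single library. Apob, at 10.8 ± 2.69 FPKM, lay above Rbp2, at 8.39 ± 3.97 FPKM, in 5 of 6 libraries, while S100g lay above Apob in 2 of 6, so these neighbours are not separated beyond their spread in every library. Apoa1 (1.03 ± 1.65), Sis (0.827 ± 0.415), Apoa4 (0.4496 ± 0.571) and Mttp (0.381 ± 0.280) formed a low group on the FPKM scale whose order changed between libraries. Fabp1 (0.108 ± 0.106 FPKM) and Lct (0.00921 ± 0.0140 FPKM) were near the floor. Within the fatty acid-binding pair, Fabp2 was thus among the most abundant transcripts and Fabp1 was close to the limit of detection.

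**Figure D1:**
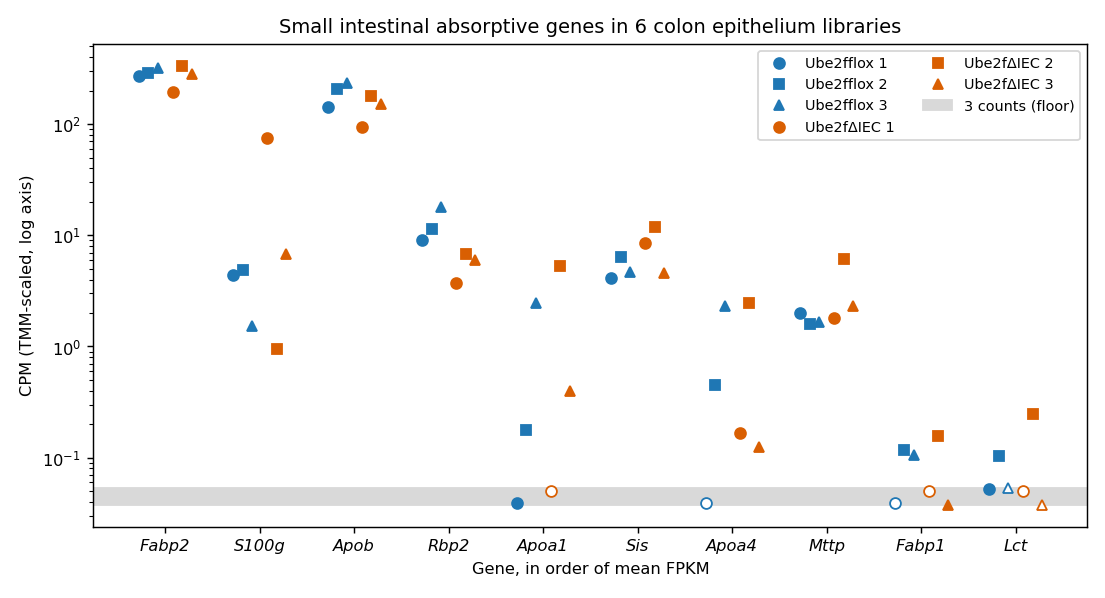
Level of each of the 10 genes in the 6 libraries, in CPM on a log axis, with genes ordered by mean FPKM. Blue marks are Ube2fflox and orange marks Ube2fΔIEC mice, the shapes give the replicate number, the grey band spans 3 counts in the 6 libraries, and open marks are libraries with 0 counts drawn at that floor. Fabp2 lies between 193 and 334 CPM in all libraries, S100g reaches 75.4 CPM in Ube2fΔIEC replicate 1, and Fabp1 and Lct stay at or below 0.248 CPM.

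The stretches just upstream of 4 of these genes are shown because they carry the results below: Fabp2, the abundant member; Rbp2, the member with the smallest p; S100g, high in 1 library; and Sis, known as a target of CDX2. Each is the 150 bases before the RefSeq start in GRCm38.p6, on the strand of the gene, and none of the 4 overlaps an exon of GENCODE M21. The Rbp2 window lies inside the span that GENCODE M21 gives that gene, since the RefSeq start is downstream of the GENCODE start. Capitals mark matches on either strand to 3 motifs. The first, CAAAGNNCA with N for any base, resembles what the receptor HNF4 binds. The second, CAATAAA, is of the homeobox factor type bound by the CDX proteins. The third, AGATAA, holds the core bound by zinc fingers of the GATA family. These motifs were spelled after the promoters had been read, and no matches overlap each other.
Fabp2 (plus strand, chr3:122894922-122895071): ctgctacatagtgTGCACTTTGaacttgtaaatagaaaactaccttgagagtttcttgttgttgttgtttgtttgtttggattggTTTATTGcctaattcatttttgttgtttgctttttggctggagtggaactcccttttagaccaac
Rbp2 (plus strand, chr9:98490387-98490536): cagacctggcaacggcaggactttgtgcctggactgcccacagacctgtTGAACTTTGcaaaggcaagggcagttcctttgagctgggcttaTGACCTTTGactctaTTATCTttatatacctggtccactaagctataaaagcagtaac
S100g (minus strand, chrX:162964600-162964749): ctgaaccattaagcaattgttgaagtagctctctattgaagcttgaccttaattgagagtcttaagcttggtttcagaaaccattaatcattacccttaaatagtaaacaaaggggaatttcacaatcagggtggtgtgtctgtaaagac
Sis (minus strand, chr3:72967864-72968013): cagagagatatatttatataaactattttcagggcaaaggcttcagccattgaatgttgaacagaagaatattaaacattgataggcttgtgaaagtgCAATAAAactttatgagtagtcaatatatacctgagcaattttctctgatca
Upstream of Rbp2 there are 2 HNF4-type matches and 1 GATA-type match, upstream of Fabp2 1 HNF4-type and 1 CDX-type match, upstream of Sis 1 CDX-type match, and none of these letters occur in the S100g window. Of the 10 promoters, 3 hold an HNF4-type match (Rbp2, Fabp2 and Apob), 2 a CDX-type match (Fabp2 and Sis) and 2 a GATA-type match (Rbp2 and Lct). Of the 10 windows 5 overlap an exon of GENCODE M21, by 150 of 150 bases for Apoa4 and Mttp, 52 for Fabp1, 50 for Apoa1 and 29 for Apob. Among all 32851 promoters of the RefSeq table the shares were 3.25%, 2.43% and 5.65%. Because the motifs were spelled after the promoters had been read, these shares give no test of an excess in the panel. A match describes the letters and is not a measured site.

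The comparison asks whether the panel differs between the genotypes. Of the 10 genes, 8 passed the filter on low counts and were tested, while Fabp1 and Lct were not. None of the 8 passed over all genes (edgeR quasi-likelihood test, 2-sided, Benjamini-Hochberg threshold 0.05), against a background of 0.0447% of 17900 genes. At an unadjusted p under 0.05 there were 1 higher in Ube2fΔIEC, S100g, and 1 lower, Rbp2, where 4.15% of all genes are higher and 4.03% lower at that level, 8.18% in either direction. DESeq2 called 1 of the 8, Rbp2, with 1.42% of all genes called, and limma-voom called 0, with 0.0279% of all genes called. Of the 8, 5 had a positive and 3 a negative log2 fold change (median 0.36), against 8943 positive and 8957 negative over all genes (median 0.00). With library totals in place of TMM the median of all genes moved by 0.15, with 13374 positive and 4526 negative, and the 8 had 6 positive and 2 negative. Values below are relative to TMM. Without Ube2fΔIEC replicate 2 the median of the 8 was -0.48, with 3 positive and 5 negative.

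Rbp2, the cellular retinol-binding protein of enterocytes (ENSMUSG00000032454; GRCm38 chromosome 9, 98486115 to 98509781, plus strand), had its 3 lowest levels in the Ube2fΔIEC mice. It was at 9.16, 11.5 and 18.0 CPM in the Ube2fflox libraries and at 3.72, 6.78 and 6.02 CPM in the Ube2fΔIEC libraries. Every Ube2fΔIEC library lay below every Ube2fflox library, and Rbp2 was the only member of the 8 whose groups did not overlap, where 14.2% of all genes tested did not overlap, 6.9% lower and 7.26% higher in Ube2fΔIEC. The means were 12.9 ± 4.59 and 5.51 ± 1.59 CPM (SD, n = 3 each), a log2 fold change of -1.22 (SE 0.30) that did not pass over all genes (adjusted p = 0.334 by edgeR quasi-likelihood with Benjamini-Hochberg). DESeq2 gave -1.23 with an adjusted p of 0.00413, the lowest of the 14 alternatives, which reached 0.681. The direction held in each of the 6 fits that left out a library, from -1.42 to -0.91, with the smallest difference when Ube2fflox replicate 3, the highest library, was left out. Without Ube2fΔIEC replicate 1 the log2 fold change was -1.01 (SE 0.29).

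Fabp2, the intestinal fatty acid-binding protein (ENSMUSG00000023057; chromosome 3, 122895072 to 122899506, plus strand), showed no such gap. It was at 271, 287 and 323 CPM in Ube2fflox and at 193, 334 and 284 CPM in Ube2fΔIEC. Both the lowest and the highest library were Ube2fΔIEC mice, so the groups overlapped fully. Its log2 fold change was -0.12 (SE 0.18; adjusted p = 0.900 by edgeR quasi-likelihood with Benjamini-Hochberg), and 0.04 with library totals or 0.07 without Ube2fΔIEC replicate 1. Fabp2 was the most even member, with a coefficient of variation of 17.6% over the 6 libraries.

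Fabp1, the liver-type fatty acid-binding protein (ENSMUSG00000054422; chromosome 6, 71199827 to 71205023, plus strand), had 0, 8 and 6 counts in Ube2fflox and 0, 12 and 3 counts in Ube2fΔIEC. Each group had a library with none, and a difference between genotypes was not detectable at this depth. The other genes of the same protein fold were mostly low too. Of 11 in the list 7 were measured and 3 tested, 3 with positive and 0 with negative values (median 0.99). After adjustment over all genes 0 passed in edgeR, against 1 in DESeq2 and 0 in limma-voom. Before adjustment edgeR had 2 higher at p under 0.05 (1 without either Ube2fΔIEC replicate 1 or 2). The 2 of highest FPKM were Fabp6, the ileal bile acid-binding protein, at 5.92 ± 4.79 FPKM and Fabp5 at 1.03 ± 0.540 FPKM.

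In the vitamin A list, all 15 genes were measured and 12 tested, 8 with positive and 4 with negative values (median 0.19; 10 and 2 with library totals). At an unadjusted p under 0.05 there were 2 higher and 2 lower, 0 passed over all genes in edgeR or limma-voom, and 1 passed in DESeq2. Aldh1a1, which makes retinoic acid, was at 61.3 ± 11.6 FPKM (0.25, SE 0.10), and Isx, the homeobox repressor of carotenoid uptake, at 55.2 ± 7.27 FPKM (-0.10, SE 0.12).

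Apob, the scaffold protein of chylomicrons (ENSMUSG00000020609; chromosome 12, 7977648 to 8016835, plus strand), was well expressed in every library. It was at 141, 209 and 233 CPM in Ube2fflox and at 93.9, 181 and 151 CPM in Ube2fΔIEC. The lowest library was Ube2fΔIEC replicate 1 and the highest Ube2fflox replicate 3, with overlap between the groups. The log2 fold change was -0.45 (SE 0.25; adjusted p = 0.687 by edgeR quasi-likelihood with Benjamini-Hochberg), and -0.23 without Ube2fΔIEC replicate 1.

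Mttp, which loads lipid onto apolipoprotein B (ENSMUSG00000028158; chromosome 3, 138089854 to 138144968, minus strand), was scarce beside Apob: 0.381 against 10.8 FPKM. It was at 2.01, 1.58 and 1.66 CPM in Ube2fflox and at 1.79, 6.09 and 2.31 CPM in Ube2fΔIEC. Ube2fΔIEC replicate 2 stood above the other 5 libraries, which ranged from 1.58 to 2.31 CPM. The log2 fold change was 0.96 (SE 0.45; adjusted p = 0.635 by edgeR quasi-likelihood with Benjamini-Hochberg) with that library and 0.23 (SE 0.30) without it.

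The apolipoproteins Apoa1 (ENSMUSG00000032083; chromosome 9, 46228580 to 46230466, plus strand) and Apoa4 (ENSMUSG00000032080; chromosome 9, 46240696 to 46243459, plus strand) are near neighbours of 1 cluster. Apoa1 had 3, 12 and 140 counts in Ube2fflox and 0, 409 and 32 counts in Ube2fΔIEC. Apoa4 had 0, 31 and 132 counts in Ube2fflox and 10, 190 and 10 counts in Ube2fΔIEC. For both genes the same libraries were high, Ube2fΔIEC replicate 2 first and Ube2fflox replicate 3 second, so that 1 mouse of each genotype carried most of the signal. Apoa1 reached 5.34 and 2.47 CPM there and Apoa4 2.48 and 2.33 CPM. The fitted differences were accordingly imprecise, at 1.13 (SE 1.67) for Apoa1 and 0.02 (SE 1.48) for Apoa4. They were -2.09 and -2.64 without Ube2fΔIEC replicate 2, and 4.17 and 2.05 without Ube2fflox replicate 3. Apoc3 and Apoa5, which lie in the same cluster, were at or below 0.14 CPM in every library.

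A wider list of fat uptake and chylomicron assembly genes held both abundant and scarce members. All 27 genes of that list were measured and 24 tested, 7 with positive and 17 with negative values (median -0.16). With library totals there were 11 and 13 (median -0.00), and without Ube2fΔIEC replicate 2, where 25 genes passed the filter, there were 3 and 22 (median -0.28). In edgeR 0 passed over all genes, with 3 lower and 0 higher at an unadjusted p under 0.05, and 0 passed in DESeq2 or limma-voom. P4hb, the partner subunit of MTTP that also folds other proteins, was at 228 ± 29.1 FPKM (0.06, SE 0.10), and the cargo receptor Surf4 at 65.8 ± 8.28 FPKM (0.09, SE 0.08). The lipid droplet protein Plin3 had the smallest p, at 72.9 ± 6.36 against 58.1 ± 4.09 CPM (-0.33, SE 0.09; adjusted p = 0.385 by edgeR quasi-likelihood with Benjamini-Hochberg).

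**Figure D2:**
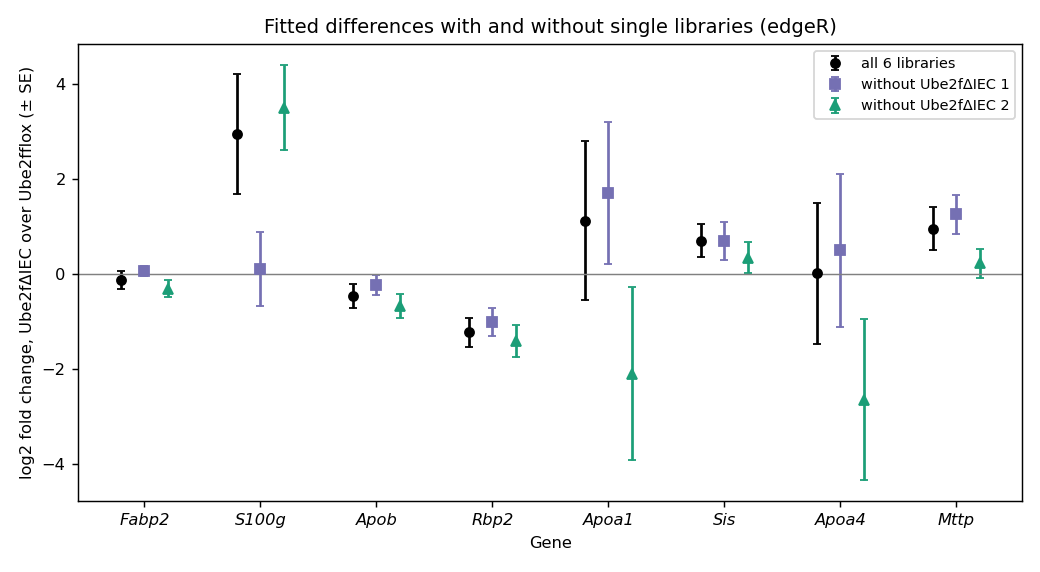
Fitted log2 fold change of the 8 tested genes, Ube2fΔIEC over Ube2fflox, with its SE, from edgeR on all 6 libraries (black circles), without Ube2fΔIEC replicate 1 (purple squares) and without Ube2fΔIEC replicate 2 (green triangles). Rbp2 stays between -1.40 and -1.01 in these 3 fits, S100g is at 2.95 with and 0.12 without replicate 1, and Apoa1 and Apoa4 are negative without replicate 2.

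S100g, the vitamin D-dependent calcium-binding protein of the duodenum (ENSMUSG00000040808; X chromosome, 162961992 to 162964599, minus strand), was the most uneven member. It was at 4.36, 4.83 and 1.53 CPM in Ube2fflox and at 75.4, 0.954 and 6.84 CPM in Ube2fΔIEC. Ube2fΔIEC replicate 1 held 79.1 times the level of replicate 2 of the same genotype, which was the lowest of the 6 libraries. The log2 fold change of 2.95 (SE 1.27) did not pass (adjusted p = 0.609 by edgeR quasi-likelihood with Benjamini-Hochberg) and was 0.12 (SE 0.78) without replicate 1. That library is also the one with Xist and without Y-linked RNA. Whether sex had a part in the S100g level was not tested and cannot be told apart from the mouse.

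Trpv6, the apical calcium channel that works with S100G in calcium uptake, was at 0.445, 1.78 and 0.317 CPM in Ube2fflox and at 57.1, 3.998 and 14.4 CPM in Ube2fΔIEC. It was highest in the same library as S100g, yet every Ube2fΔIEC library lay above every Ube2fflox library, as for 7.26% of all genes tested. The log2 fold change was 4.87 (SE 1.05; adjusted p = 0.269 by edgeR quasi-likelihood with Benjamini-Hochberg), and 3.43 (SE 0.80) without Ube2fΔIEC replicate 1. DESeq2 called Trpv6 higher on all 6 libraries. Of the 11 vitamin D and calcium genes 10 were measured and 9 tested, 4 positive and 5 negative (median -0.04), or 6 and 3 with library totals (median 0.12). After adjustment over all genes 0 passed in edgeR, against 1 in DESeq2 and 0 in limma-voom. Before adjustment edgeR had 1 higher and 2 lower at p under 0.05 (1 and 0 without Ube2fΔIEC replicate 1). Vdr, the vitamin D receptor, was at 78.0 ± 4.13 FPKM (-0.13, SE 0.07), and Cldn2, a claudin of cation pores, at 35.4 ± 7.65 FPKM (0.15, SE 0.19).

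Sis, which encodes sucrase-isomaltase (ENSMUSG00000027790; chromosome 3, 72888557 to 72967863, minus strand), was low but measured in every library. It was at 4.13, 6.43 and 4.72 CPM in Ube2fflox and at 8.47, 11.95 and 4.59 CPM in Ube2fΔIEC. Ube2fΔIEC replicates 1 and 2 lay above all Ube2fflox libraries and replicate 3 among them. The log2 fold change of 0.71 (SE 0.34) did not pass (adjusted p = 0.637 by edgeR quasi-likelihood with Benjamini-Hochberg) and was 0.35 (SE 0.32) without replicate 2.

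Lct, lactase (ENSMUSG00000026354; chromosome 1, 128284756 to 128328318, minus strand), had 4, 7 and 0 counts in Ube2fflox and 0, 19 and 0 counts in Ube2fΔIEC, so that a difference was not detectable at this depth. Ube2fΔIEC replicate 2 again held the most. Other brush border hydrolases of the small intestine ranged widely in level, from 0.0540 ± 0.0222 FPKM for Mme to 81.2 ± 7.22 FPKM for Mep1a. Of 16 in the list 14 were measured and tested, 5 positive and 9 negative (median -0.09). With library totals there were 8 and 6 (median 0.07), and without Ube2fΔIEC replicate 2 there were 3 and 11 (median -0.33). After adjustment over all genes 0 passed in edgeR, against 1 in DESeq2 and 0 in limma-voom. Before adjustment edgeR had 1 higher and 2 lower at p under 0.05. The meprin subunits Mep1a (-0.38, SE 0.08) and Mep1b, at 32.7 ± 3.32 FPKM (-0.08, SE 0.13), led it. Mep1a, with the smallest p of the list, was at 352 ± 19.9 against 271 ± 13.4 CPM without overlap (adjusted p = 0.243 by edgeR quasi-likelihood with Benjamini-Hochberg). Of all genes tested 6.9% did not overlap and were lower in Ube2fΔIEC. DESeq2 called Mep1a lower.

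Nutrient transporters of the small intestine were measured as well. Of 15, 14 were measured and 12 tested, 5 positive and 7 negative (median -0.07), or 7 and 5 with library totals (median 0.08), and 0 passed in edgeR, DESeq2 or limma-voom, with 1 higher and 1 lower at an unadjusted p under 0.05 in edgeR. The glucose transporter Slc5a1 was at 29.9 ± 3.51 FPKM (-0.11, SE 0.10) and the amino acid transporter subunit Slc3a1 at 19.4 ± 5.08 FPKM (-0.53, SE 0.26, or -0.27 without Ube2fΔIEC replicate 1). The proline transporter Slc6a20a had the smallest p (0.73, SE 0.21; adjusted p = 0.415 by edgeR quasi-likelihood with Benjamini-Hochberg).

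Ileal-type expression was mixed. Of 10 genes of ileal bile acid and vitamin B12 handling 9 were measured and 8 tested, 6 positive and 2 negative (median 0.28; 7 and 1 with library totals). After adjustment over all genes 0 passed in edgeR, against 2 in DESeq2 (1 higher and 1 lower) and 0 in limma-voom. Before adjustment edgeR had 4 higher and 1 lower at p under 0.05. Without Ube2fΔIEC replicate 1 there were 2 higher, Slc51a and the vitamin B12 receptor subunit Cubn, whose value went from 0.82 to 0.40. Without Ube2fΔIEC replicate 2 there were also 2. The 1 lower was Amn, of the same list, at -0.52 (SE 0.13). Amn was at -0.52 without Ube2fΔIEC replicate 1 and at -0.57 without Ube2fΔIEC replicate 2, and DESeq2 called it lower on all 6 libraries. Slc51a and Slc51b encode the subunits of the bile acid exporter. Slc51a was at 86.6 ± 2.03 against 108 ± 6.42 CPM (0.31, SE 0.07; adjusted p = 0.294 by edgeR quasi-likelihood with Benjamini-Hochberg) and Slc51b at 24.1 ± 2.42 against 29.0 ± 1.53 CPM (0.26, SE 0.10). The libraries of the genotypes did not overlap for either, where 7.26% of all genes tested did not overlap and were higher in Ube2fΔIEC. DESeq2 called Slc51a higher. The bile acid receptor Nr1h4 was at 45.9 ± 9.19 FPKM (0.28, SE 0.11, or 0.19 without Ube2fΔIEC replicate 1). Fabp6, the cytosolic bile acid carrier, was at 2.55, 0.453 and 3.17 CPM in Ube2fflox and at 4.51, 6.81 and 0.927 CPM in Ube2fΔIEC, with overlap.

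No transcription factor of intestinal regions in the list passed in any of the 3 tools. Of 16 genes all were measured and 15 tested, 7 positive and 8 negative (median -0.02), or 11 and 4 with library totals (median 0.13), and in edgeR 0 passed, 0 reached an unadjusted p under 0.05, and DESeq2 and limma-voom called 0. Cdx1 was at 183 ± 21.04 FPKM (-0.07, SE 0.10) and Hnf4a at 179 ± 17.4 FPKM (-0.07, SE 0.10), while Hnf4g had the smallest p (0.37, SE 0.18, or 0.17 without Ube2fΔIEC replicate 1; adjusted p = 0.642 by edgeR quasi-likelihood with Benjamini-Hochberg). Cdx2 was at 105 ± 15.7 FPKM and Gata6 at 9.79 ± 0.992 FPKM. Gata4 was at 0.147 ± 0.0984 FPKM. These 3 were chosen after their values were seen.

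Ube2fΔIEC replicate 2 recurred as the highest library. It was the highest of the 6 for 7 of the 10 genes of the panel and for 5 of the 8 tested, where 12% of all genes tested were highest in it. The 7 were Fabp1, Fabp2, Apoa1, Apoa4, Mttp, Lct and Sis, while Rbp2 and Apob were highest in Ube2fflox replicate 3 and S100g in Ube2fΔIEC replicate 1. In the wider lists, 2 of 14 tested hydrolases and 2 of 12 tested nutrient transporters were highest in Ube2fΔIEC replicate 2. For the fat uptake and chylomicron list it was 6 of 24, and for the ileal list 2 of 8. Summed hydrolase levels were 896 CPM in Ube2fΔIEC replicate 2 and 780 to 926 CPM elsewhere. Summed transporter levels were 331 CPM in Ube2fΔIEC replicate 2 and 331 to 406 CPM elsewhere. The same library held products of Paneth cells, the secretory cells at the crypt base of the small intestine. Defa17, Defa22, Defa24 and Defa30 had 146, 179, 321 and 172 counts there and 0 counts in each of the other 5 libraries, though reads may be shared among these near-identical genes. Lyz1 was at 8.92 CPM there and at most 0.351 CPM elsewhere. All 8 Paneth-defining genes were measured, and their summed level ran from 6.66 to 84.9 CPM in Ube2fflox and was 281, 167 and 210 CPM in Ube2fΔIEC, lowest of the 3 in replicate 2. Most of the sum was Ang4 and Itln1, which other crypt cells also make. The 4 that were tested had positive values (median 2.32), with 0 passing in edgeR or limma-voom, and 1, Itln1, in DESeq2. In edgeR 4 were higher at an unadjusted p under 0.05, where 4.15% of all genes are. Without Ube2fΔIEC replicate 2 Lyz1 went from 4.20 (SE 1.53) to 0.77 (SE 1.23). Mmp7 then went from 1.76 to 1.38, Itln1 from 2.28 to 2.32 and Ang4 from 2.35 to 2.58. Without Ube2fΔIEC replicate 1 Ang4 was at 2.09 (SE 0.93). The part of small intestinal cells in the high values of this library was not tested, and the tissue was labelled colon throughout.

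**Figure D3:**
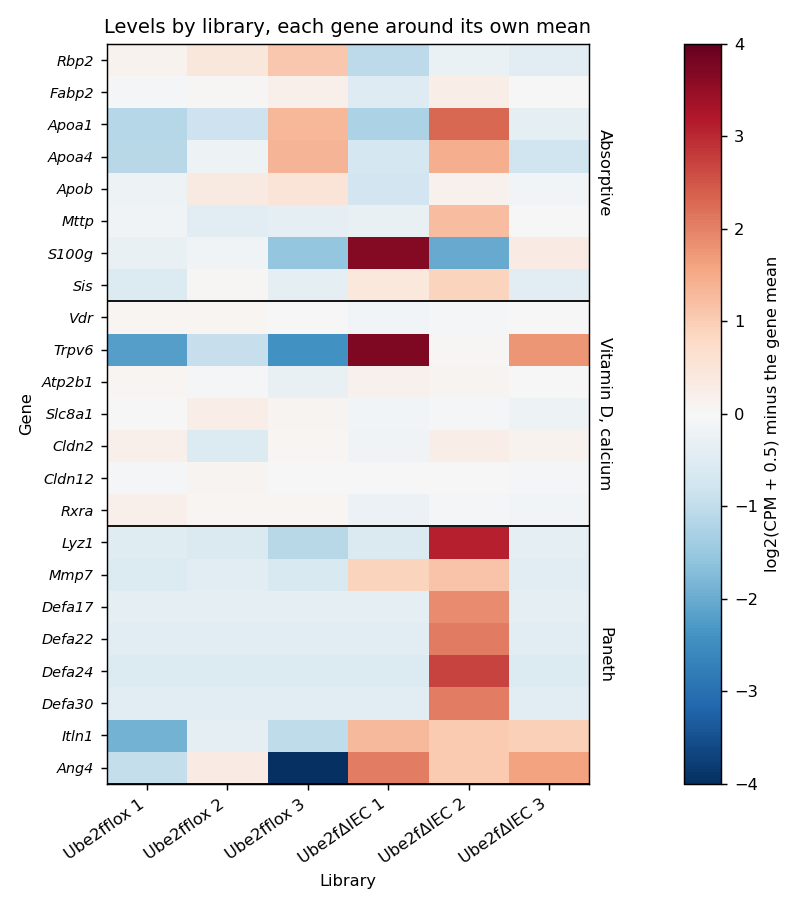
Log2(CPM + 0.5) of each gene minus its own mean over the 6 libraries, for genes of 3 lists that reached 0.5 CPM in at least 1 library; red is above and blue below the mean of the gene, and colours end at 4. S100g and Trpv6 are highest in Ube2fΔIEC replicate 1, and Apoa1, Mttp, Lyz1 and the Defa genes in Ube2fΔIEC replicate 2.

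Markers of other organs and cell types were also read. Of 10 liver-defining genes 6 were measured, with Alb at 0.120 ± 0.0605 FPKM, while Tat (11.7 ± 3.21 FPKM) and Ttr (9.21 ± 4.31 FPKM) were higher. Ttr had a log2 fold change of -1.05 (SE 0.29), which DESeq2 but not edgeR called lower. Alb (-0.29, SE 0.69), Trf (-0.47, SE 0.21) and Apoh (-0.92, SE 0.78) were also negative. Cps1 (0.29, SE 0.36) and Tat (0.02, SE 0.30) were positive. Summed liver-defining levels ran from 74.6 to 76.9 CPM in Ube2fflox and from 61.1 to 79.5 CPM in Ube2fΔIEC, with Ube2fΔIEC replicate 2 the lowest. Of 9 acinar pancreas genes 3 were measured, Cela1 at 34.9 ± 5.92 FPKM and Ctrb1 and Cel at or under 0.111 CPM. Summed levels of 8 leukocyte markers, led by Cd74 and Ptprc, ran from 91.8 to 193 CPM in Ube2fflox and from 57.3 to 81.4 CPM in Ube2fΔIEC. Most of that gap was Cd74, at 106 ± 35.7 against 35.4 ± 12.5 CPM (-1.57, SE 0.31), which DESeq2 but not edgeR called lower. Which cells of the fraction made Cd74 was not determined. Of the 8, 5 were negative like Rbp2 and 3 positive, Cd79a (0.71, SE 0.74), Cd68 (0.36, SE 0.54) and Jchain (0.32, SE 0.44). Without Ube2fflox replicate 3 Cd74 was at -1.53, Ptprc went from -0.73 to -0.17, Cd3e from -0.67 to -0.16 and Lyz2 from -0.54 to 0.11. Itgam then went from -0.28 to -0.47, and the 3 positive genes stayed positive. Summed levels of the 8 measured stromal, endothelial and muscle genes stayed between 2.82 and 7.86 CPM. The part of leukocytes in the Rbp2 difference was not tested.

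**Figure D4:**
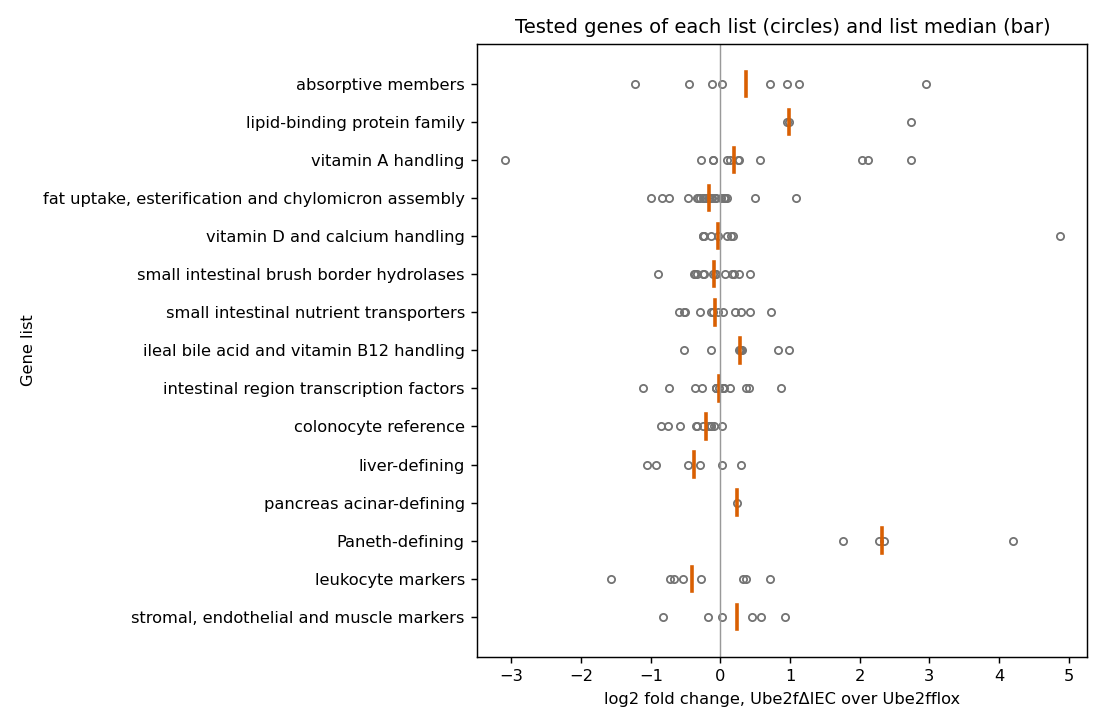
Log2 fold change, Ube2fΔIEC over Ube2fflox, of each tested gene (circles) in 15 lists, with the list median (bar). The 10-gene panel, at the top, spreads from -1.22 to 2.95 around a median of 0.36, while the transcription factors have a median of -0.02.

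Profiles across the 6 libraries were also compared with 10127 genes of at least 5 CPM, leaving out genes with only a clone name. Likeness was the root mean square difference of log2(CPM + 0.5), each gene centred on its own mean. The profile of Fabp2 was closest to Plxna2 (0.0660), Rai14 (0.0671) and Malrd1 (0.0692), where Fabp2 itself varied by 0.26 around its mean. The profile of Apob, which varied by 0.43, was closest to Stk10 (0.0730), Osbpl3 (0.0922) and Asap1 (0.0986). S100g varied by 1.84, and its nearest genes lay far off: Ubb-ps (1.03), a pseudogene that may share reads with Ubb, Pla2g4c (1.13) and Slc30a10 (1.30). Pla2g4c was at 111 CPM in Ube2fΔIEC replicate 1 and between 0.917 and 14.3 CPM in the other libraries. With 6 points per gene such likeness describes these libraries only.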

How the data were processed

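A single deposited table gave read counts, all whole, for each gene in each mouse. Beside them it gave FPKM, which the authors had already scaled by length and depth. The tools named in the submitters' processing notes are StringTie 2.1.6, HISAT2 2.2.1, cutadapt 1.9, edgeR and DESeq2, and the build is mm10. Read assignment and strand are not given in the sources used here, so overlapping and antisense genes are uncertain. GENCODE M21 (GRCm38) holds 26774 of the IDs, of which 517 (1.93%) had the coordinates of the table, so positions printed are those of GENCODE M21 by gene ID.

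Genes were kept by filterByExpr (17900 of 28500), given TMM factors, then fitted by edgeR quasi-likelihood (edgeR 4.0.16, R 4.3.3), 2-sided, Benjamini-Hochberg over all genes, with genotype alone in the model. The SE is the log2 fold change over the square root of F. Alternatives were DESeq2 1.42.0, limma-voom and limma on log2 FPKM (limma 3.58.1), other scalings, no filter and leaving out each library. The table held 0 other sample columns. Replicates differed by more than counting noise (chi-square per degree of freedom 27.3 to 194), and with 3 mice per group an exact permutation test cannot go below 0.1.

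The panel and gene lists were chosen with earlier results of these data known. Genes named were all 10 panel genes and, of each list, the 2 of highest FPKM and the 1 of smallest p. Names outside this rule were picked with their values in view, and a few genes within it are not reported here.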

Additional observations from a re-analysis of the deposited data

How the results depend on the processing

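The 8 genes passing over all 17900 became 18 with library totals, 255 with DESeq2, 5 with limma-voom, 5 and 3 with limma on log2 FPKM with pseudocounts of 0.1 and 1, and 0 to 90 when a library was left out, the 90 without Ube2fflox replicate 1. Of the 10 panel genes 0 passed under every alternative but DESeq2, where 1, Rbp2, did. Rbp2, Apob, Mttp, S100g and Sis kept their direction in all 14 alternatives. Fabp2 turned to 0.04 with library totals, to 0.01 with limma on log2 FPKM with either pseudocount, and ran from -0.30 to 0.07 when a library was left out. Apoa1 ran from -2.09 to 4.17 and Apoa4 from -2.64 to 2.05 when a library was left out, and Apoa4 was at -0.01 with DESeq2. The causes were not tested. The replicate numbers are not tied to a litter or day by the labels, and deviations of same-numbered libraries correlated at 0.115, -0.046 and 0.112 for replicates 1 to 3, with 4 of 6 libraries closest to their own number. With the replicate block 10 genes passed in place of 8, none of them in the panel but Cd74 among them, and S100g was at 1.64. Fabp1 and Lct had too few counts to be tested.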

Other observations

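Nmnat3 and Copb2, the nearest coding genes of at least 1 CPM on the sides of Rbp2, had log2 fold changes of 0.35 (SE 0.16) and 0.08 (SE 0.09), where Rbp2 had -1.22. Taken by the same rule for S100g on the X chromosome, Syap1 ends before it, at 162888447, and Grpr starts beyond it, at 163513904. S100g itself ends at 162964599, so Grpr is not an immediate neighbour. Syap1 stayed between 53.4 and 63.2 CPM in all 6 libraries, and Grpr, a peptide receptor, was at 0.419 to 0.804 CPM in Ube2fflox and 1.15 to 1.76 CPM in Ube2fΔIEC. Sik3 and Zpr1 flank the Apoa1 and Apoa4 cluster and differed by -0.04 (SE 0.10) and 0.11 (SE 0.08).

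Creb3l3, a transcription factor of intestinal and hepatic lipid genes, was at 10.9, 28.9 and 45.2 CPM in Ube2fflox and at 4.23, 24.8 and 21.6 CPM in Ube2fΔIEC. It was lowest in Ube2fΔIEC replicate 1 and highest in Ube2fflox replicate 3, as Apob and Rbp2 were, and its log2 fold change was -0.74 (SE 0.65). That value was -0.29 without Ube2fΔIEC replicate 1, -0.24 without Ube2fflox replicate 3, and -1.13 without Ube2fΔIEC replicate 2 or Ube2fflox replicate 1. The brush border peptidase Anpep was at 43.7 CPM in Ube2fΔIEC replicate 2 and between 6.94 and 23.4 CPM in the other libraries, and the cholesterol transporter Npc1l1 at 2.72 CPM there and at most 0.687 CPM elsewhere. These genes were chosen after their values were seen.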
